A study of Homo sapiens with 10 samples.

Results

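Sodium and calcium pump subunits were followed in MOLT-4 cells, a human T-cell leukaemia line, during treatment with MABL, an antibody to the surface protein CD47. The subunits were 6 of the 11963 genes named by the annotation: ATP1B1, ATP1B3, ATP2A2, ATP2A3, ATP2B1 and ATP2B4. They were chosen by gene symbol, with earlier results of these same arrays known, and ATP1B3 and ATP2A2 were set apart from the others for that reason. All 16 of the 22283 probe sets that carry these symbols were taken, 4 for ATP1B3 and ATP2A2 and 12 for the other 4 genes. A probe set is a group of short oligonucleotides that reads a transcript. The levels and changes of the subunits over time are therefore a description, and no call on them is evidence for the choice.

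The series held 10 Affymetrix expression arrays, 2 replicates for each of 5 times, which were 0 h, 0.5 h, 1 h, 3 h and 6 h, and this number limits the precision of every value. Every group, 0 h included, was labelled with 10 ug/mL MABL together with 50 ug/mL of GAM, an abbreviation that the labels do not explain. Cells left untreated over the same hours were not analysed here, so antibody, GAM, handling and time in culture cannot be told apart. The labels do not say whether replicates were separate cultures, and the p-values given for other genes measure only the spread between these arrays, which may be technical.

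The sodium pump moves sodium out of and potassium into the cell at the cost of ATP. It is built from a catalytic alpha subunit and a glycosylated beta subunit, which is needed for folding and for transport to the plasma membrane. ATP1B1 and ATP1B3 encode beta subunits, and the ATP1B3 protein is also known as the surface antigen CD298. Calcium is cleared from the cytosol by pumps of the endoplasmic reticulum, encoded by the ATP2A genes and known as SERCA, and by pumps of the plasma membrane, encoded by the ATP2B genes and known as PMCA. ATP2A2 encodes the SERCA form found in nearly all cells, and ATP2A3 a form found mainly in blood cells and some epithelia. In T cells, filling of the endoplasmic reticulum by SERCA and emptying of it after receptor stimulation shape the calcium signal.

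Levels are square roots of the deposited scores, read as log2 because of their range. The authors do not state the scale, and every change or fold below depends on that reading. Of the 15 T-lineage and T-cell leukaemia markers, 11 passed the filter, which asked for log2 5 or more on at least 2 arrays. CD4, CD7, CD28 and NOTCH3 did not. No measured B-cell, myeloid or erythroid marker passed it, out of 4, 5 and 1, and of 4 fibroblast or epithelial markers only COL1A1 did, at 5.06 to 5.49. Relative to 0 h, the median level of an array over the tested probe sets moved by -0.13, -0.29, -0.31 and -0.25 at the 4 later times, in order. On the same arrays the 18S ribosomal RNA probe sets were higher than at 0 h by 1.43, 1.66, 2.17 and 2.58, and the spike-in controls by 0.27, 0.25, 0.76 and 0.63. Some of the changes below are also given with the array medians made equal. The part of the ribosomal RNA and spike-in shifts in the changes was not tested.

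ATP1B3, read by 1 probe set (208836_at), was at its highest level at 0 h and at a lower one from 1 h on. The 2 arrays stood at 8.59 and 8.73 at 0 h and at 8.52 and 8.52 at 0.5 h. At 1 h they stood at 7.64 and 7.62, at 3 h at 7.90 and 7.73, and at 6 h at 7.50 and 7.52. All 6 arrays from 1 h on thus lay below all 4 arrays of the first 30 min, with little scatter between replicates. The log2 difference from 0 h was -0.14, -1.03, -0.85 and -1.15 at the 4 later times, in order (SE 0.101 for each, n = 2 arrays per time). At 6 h the level was 2.22-fold below that at 0 h. The step came between 0.5 h and 1 h, and later times differed from 1 h by 0.19 at 3 h and by -0.12 at 6 h. With the medians of the arrays made equal, the differences from 0 h at 1 h, 3 h and 6 h were -0.75, -0.54 and -0.90. In bulk RNA of this kind, fewer cells with a transcript and less of it per cell cannot be told apart.

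ATP2A2 declined later and further than ATP1B3. Its probe set 209186_at read 8.13 and 7.97 at 0 h, 8.02 and 7.72 at 0.5 h, 7.50 and 7.35 at 1 h, and 7.38 and 7.20 at 3 h. At 6 h it read 5.74 and 6.39. Both arrays of 6 h lay below every other array of the series, although they differed from each other more than the arrays of any other time. The difference from 0 h was -0.18, -0.62, -0.76 and -1.98 at the 4 later times (SE 0.210 for each). The 6 h level was 3.96-fold below that at 0 h. Most of this difference arose after 3 h, since the step from 3 h to 6 h was -1.22 and that from 1 h to 3 h was -0.14. Among the 4276 tested probe sets, ATP2A2 had rank 8 from the lowest for the change from 0 h to 6 h, and rank 5 for the change from 3 h to 6 h. ATP1B3 had rank 174 for the change from 0 h to 6 h. For the earlier changes from 0 h, to 1 h and to 3 h, ATP1B3 had ranks 561 and 642. ATP2A2 had ranks 945 and 781 there, so neither was among the extremes at those times. Without 6 h replicate 1 or 6 h replicate 2, the ATP2A2 difference at 6 h was -1.66 or -2.31.

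The other 2 probe sets of ATP2A2 did not show this decline, and they carried little signal on any array. Probe set 212361_s_at stayed between 2.37 and 2.45, and 212362_at between 2.33 and 2.44, over all 10 arrays. Both lay below the filter throughout. The account of ATP2A2 therefore rests on 209186_at alone, and which transcript forms each probe set reads was not examined.

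ATP2A3, the SERCA form of blood cells, kept about the same level at 6 h as at 0 h. Its probe set 207522_s_at read 7.17 and 7.49 at 0 h, 7.40 and 7.43 at 0.5 h, 7.09 and 6.35 at 1 h, 7.32 and 6.46 at 3 h, and 7.04 and 7.53 at 6 h. Replicate 2 was the low array at 1 h and at 3 h, and the arrays of 6 h spanned those of 0 h. Its mean stood 0.08, -0.61, -0.44 and -0.05 from that of 0 h at the 4 later times (SE 0.331 for each). A second probe set, 213036_x_at, read 7.21 and 6.91 at 0 h, 7.04 and 7.17 at 0.5 h, 6.98 and 6.44 at 1 h, 7.27 and 6.98 at 3 h, and 6.82 and 6.98 at 6 h. Here too 1 h replicate 2 was the lowest array, and the groups of 0 h and 6 h overlapped. Its difference from 0 h was 0.05, -0.35, 0.07 and -0.16 at the 4 later times (SE 0.197 for each). The array medians of the tested probe sets were lowest in 3 h replicate 2 and 1 h replicate 2, at 6.56 and 6.62, where those of 0 h were 6.98 and 6.94. The suffix x of the second name marks probes that can also match other transcripts. With equal array medians its difference at 6 h turned to 0.09, and after quantile normalization was applied again, to 0.08.

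**Figure D1:**
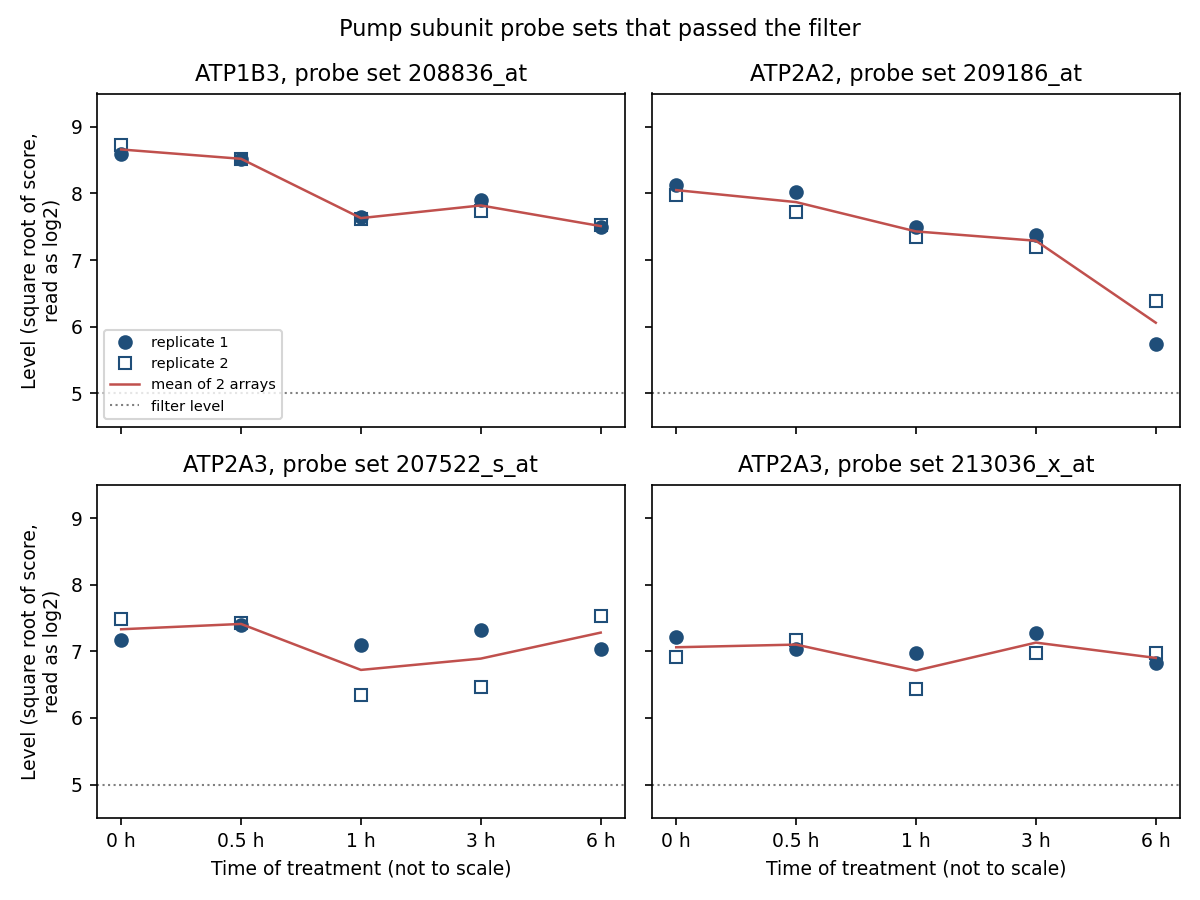
Level of the 4 tested pump subunit probe sets on each array (vertical axis, square root of the deposited score read as log2) by time of treatment. Filled circles are replicate 1, open squares replicate 2, the red line joins the means of 2 arrays and the dotted line is the filter level of 5. ATP1B3 steps down between 0.5 h and 1 h, ATP2A2 reads 5.74 and 6.39 at 6 h, and both ATP2A3 probe sets overlap at 0 h and 6 h.

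The other 12 probe sets of the subunits did not pass the filter and were not tested. They include every probe set of ATP1B1, ATP2B1 and ATP2B4. Of the 12, 10 stayed under 4 on every array, with a range over the arrays of 0.50 at most. ATP1B1, the other beta subunit, read 3.26 to 3.45 with 201242_s_at and 2.99 to 3.11 with 201243_s_at. ATP2B1, a PMCA form found in most tissues, read 3.19 to 3.38 with its brightest probe set, 215716_s_at. ATP2A3 probe set 207521_s_at read 2.54 to 2.58 and 213042_s_at read 2.63 to 3.13. At such readings a transcript that is absent, one that is scarce and a probe set that hybridises poorly look alike.

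ATP2B4, a PMCA form also found in lymphocytes and red cells, came closest to the filter. Its probe set 212135_s_at read 5.00 (just under the filter level) and 4.65 at 0 h, 4.82 and 4.54 at 0.5 h, 4.62 and 4.22 at 1 h, 4.33 and 4.45 at 3 h, and 4.35 and 4.58 at 6 h. The differences of its means from 0 h were -0.14, -0.40, -0.43 and -0.36 at the 4 later times. Its probe set 212136_at read 4.46 and 4.31 at 0 h, 5.10 and 4.27 at 0.5 h, 3.83 and 4.21 at 1 h, 4.15 and 3.54 at 3 h, and 4.21 and 4.08 at 6 h. Both probe sets had all arrays of 1 h, 3 h and 6 h below both arrays of 0 h, and 0.5 h overlapped with 0 h. Of all tested probe sets, 39%, 47.6% and 47.6% had both arrays of 1 h, 3 h and 6 h below both of 0 h, so this is common among those. The ATP2B4 probe sets were not tested, and no such share was taken over probe sets below the filter. The third, 205410_s_at, read 1.95 to 1.98.

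**Figure D2:**
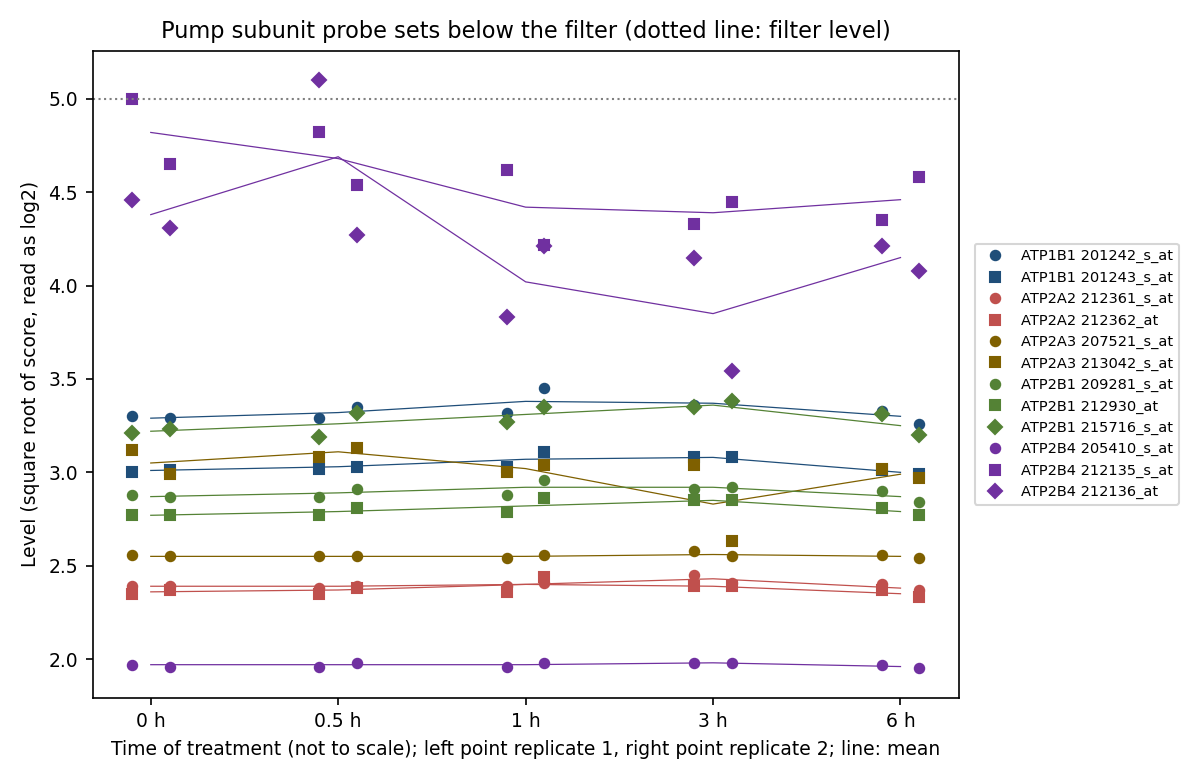
Level of the 12 pump subunit probe sets below the filter on each array (square root of the deposited score read as log2) by time of treatment. In each pair the left point is replicate 1 and the right point replicate 2, and lines join the means. Only 2 ATP2B4 probe sets come near the dotted filter level of 5, and 10 probe sets stay under 4 on all arrays.

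limma called a probe set at a Benjamini-Hochberg adjusted p under 0.05 within a comparison. At 0.5 h it called 0 of the 4 tested subunit probe sets (0 also at an unadjusted p under 0.05), where 17% of all tested probe sets were called. At 1 h it called 1 of 4, ATP1B3, against 28.4% of all. At 3 h and at 6 h it called 2 of 4, ATP1B3 and ATP2A2, against 28.9% and 25.7%. Every one of these calls was a lower level, and 24.2%, 26.4% and 21.6% of all tested probe sets were called lower at these 3 times (15.1% at 0.5 h). The call of ATP2A2 at 3 h was absent with equal array medians, after renewed quantile normalization, with no filter, on log2 of the scores and without any 1 of the 4 arrays compared. Both calls at 6 h were made in every alternative run. From 3 h to 6 h limma called 1 of 4, ATP2A2, against 7.09% of all, and 2.08% of all were called lower. Without regard to a test, 1, 3, 2 and 2 of the 4 probe sets had both arrays below both of 0 h at the 4 later times, as did 31.4%, 39%, 47.6% and 47.6% of all tested probe sets. From 3 h to 6 h it was 3 of 4, against 25.8%. As these arrays were known when the genes were chosen, nothing is read from these counts.

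The submitters' own rule asked that both replicates lie below 0.5 times the geometric mean of 0 h, or above 2 times that mean. ATP1B3 met the lower limit at 1 h and 6 h, and ATP2A2 at 6 h. The share of all tested probe sets that met it was 5.99%, 11.4%, 6.69% and 4.09% at the 4 later times. Over the 4 tested subunit probe sets the median difference from 0 h was -0.05, -0.62, -0.60 and -0.65 at the 4 later times. Over all tested probe sets it was 0.01, -0.03, -0.15 and -0.14.

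ATP1B3 and ATP2A2 were compared with the other subunits through the mean of the pair minus the level of the others, set to an average of 0 over the arrays of 0 h. Only ATP2A3 had a tested probe set among the others, so the comparison is with its brightest one, 207522_s_at. The 2 arrays gave 0.16 and -0.16 at 0 h, -0.15 and -0.34 at 0.5 h, -0.55 and 0.11 at 1 h, -0.71 and -0.02 at 3 h, and -1.44 and -1.60 at 6 h. The means at the 4 later times were -0.24 ± 0.13 (SD, n = 2), -0.22 ± 0.47, -0.36 ± 0.49 and -1.52 ± 0.11. Up to 3 h the arrays overlapped with those of 0 h, and at 6 h they lay well below them. No test was made of this difference, since the pair was selected from these values. As a ratio within an array it shows unequal change and not which side moved.

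**Figure D3:**
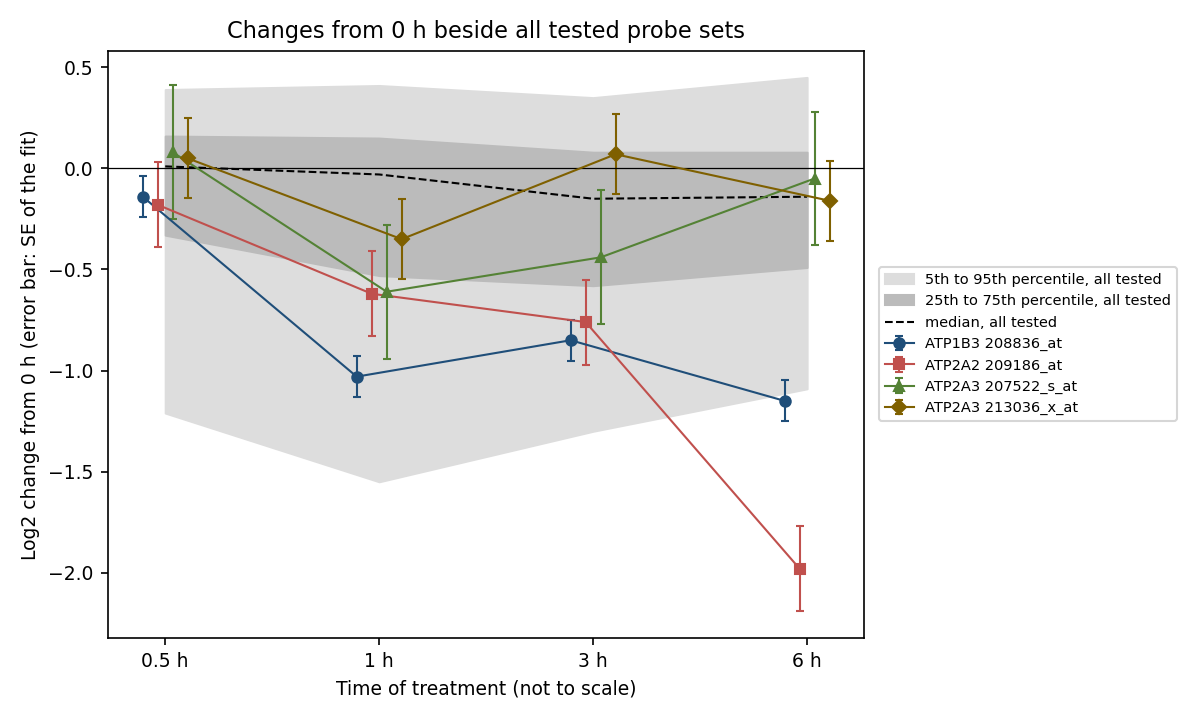
Log2 change from 0 h (vertical axis) of the 4 tested pump subunit probe sets by time, with bars for the SE of the fit. Grey bands span the 5th to 95th and 25th to 75th percentiles of all 4276 tested probe sets and the dashed line is their median. At 6 h ATP2A2 (-1.98) lies far below and ATP1B3 (-1.15) just below the outer band, whose lower edge is -1.09 there, and both ATP2A3 probe sets lie near the median at that time.

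Genes of like time course were found by the root mean square difference of the 4 mean changes from 0 h, over 2818 other genes with a tested probe set. Closest to ATP1B3 were ZNF124, a zinc finger protein (0.141), SLC7A6, an amino acid transporter (0.145), TUBGCP3 of the gamma-tubulin complex (0.163), the splicing factor RBM22 (0.191) and the cell-cycle transcription factor E2F3 (0.197). ZNF124 differed from 0 h by -0.30, -0.97, -0.76 and -0.94 at the 4 later times. Closest to ATP2A2 were the ribosome biogenesis factor NIP7 (0.183), the GTP cyclohydrolase GCH1 (0.189), the CTP synthase CTPS1 (0.199), the ribonucleotide reductase subunit RRM2 (0.209) and the zinc transporter SLC39A14 (0.246). GCH1 differed from 0 h by -0.26, -0.43, -1.06 and -2.09. For the genes closest to ATP2A2, a lowest mean at 6 h follows largely from how they were chosen. These likenesses rest on 4 means of 2 arrays each, which all share the arrays of 0 h.

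Promoter sequence is shown for the pair because both declined, and as background to their regulation only. RefSeq windows of GRCh38.p14 were matched for 5 of the 6 genes, 7 windows in all, and the 250 bases before each start were searched on both strands. ATP2A3 had no window, so the promoters of the pair could not be set beside that of the only other subunit tested. The letters searched were GGGCGG (the GC box), CCAAT (the CCAAT box) and ACGTG (the core of hypoxia response elements), which share no stretch with one another in the windows printed. For ATP1B3 all 250 bases are given (chr3:141876393-141876642, plus strand). For ATP2A2, which has 2 annotated starts, the 30 bases around the CCAAT box before the second start are given (chr12:110281172-110281201, plus strand). Capitals mark the letters searched, on either strand.
ATP1B3: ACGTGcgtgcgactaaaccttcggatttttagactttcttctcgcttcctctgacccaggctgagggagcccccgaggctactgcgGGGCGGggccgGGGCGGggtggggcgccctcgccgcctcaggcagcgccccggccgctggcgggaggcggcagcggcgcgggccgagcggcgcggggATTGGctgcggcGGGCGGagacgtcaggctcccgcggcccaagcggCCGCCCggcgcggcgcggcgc
ATP2A2: gggcgctctcggCCAATgagcggcgtccac

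The ATP1B3 window held 4 GC boxes, 1 CCAAT box that begins 67 bases before the start and 1 ACGTG at its outer edge. The second window of ATP2A2 also held 4 GC boxes and 1 CCAAT box, which begins 63 bases before its start, and no ACGTG. The first ATP2A2 window held none of the 3. Its G and C share was 54.8%, against 80.4% for the second and 77.2% for ATP1B3, with a median of 58.0% over all 35116 windows of the table. Among the subunits that stayed dim, ATP1B1 held 2 GC boxes, 1 CCAAT box and 1 ACGTG, the ATP2B1 windows held 4 and 2 GC boxes, and ATP2B4 held 1. Of all windows, 42.6% held a GC box, 32.0% a CCAAT box and 18.5% an ACGTG. These are matches of letters, and no binding was measured.

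Pump partners, other pumps and calcium genes were taken from 7 lists of 127 genes, none of them among the 6 subunits. Of these, 104 had a probe set of their own and 34 passed the filter. limma called 7 lower and 0 higher at 0.5 h (13 at an unadjusted p under 0.05), 12 lower and 1 higher at 1 h, 12 and 1 at 3 h, and 10 and 1 at 6 h. Of all tested probe sets, 15.1%, 24.2%, 26.4% and 21.6% were called lower at these times, which are shares to read each list's count against, and the share of the 34 genes was 20.6%, 35.3%, 35.3% and 29.4%. OXSR1 passed the filter only through 0 h, and without it 6, 11, 11 and 9 of 33 were called lower. Over the 34 genes the median difference from 0 h was -0.02, -0.16, -0.34 and -0.17 at the 4 later times, beside 0.01, -0.03, -0.15 and -0.14 over all tested probe sets. The balance of lower and higher calls depended on the scaling. With equal array medians 7 were lower and 3 higher at 0.5 h, and 9 and 10 at 1 h. At 3 h they were 5 and 9, and at 6 h 6 and 3. The balance over all 4276 tested probe sets moved as well. With equal array medians 656 of them were called lower and 295 higher, 834 and 1389, 760 and 987, and 603 and 613. The adjusted p-values that follow are limma's, with Benjamini-Hochberg adjustment over all tested probe sets.

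FXYD2, the gamma subunit that modulates the sodium pump, was the only gene of these lists called higher with all 10 arrays as deposited and the filter at log2 5. Without the filter, 1 listed gene was called higher at 0.5 h and 2 at 1 h, where 46 and 112 of all 22215 probe sets were. FXYD2 probe set 205674_x_at read 8.31 and 8.16 at 0 h, 8.49 and 8.50 at 0.5 h, and 8.76 and 8.69 at 1 h. It read 8.68 and 8.52 at 3 h, and 8.80 and 8.71 at 6 h. Every later array lay above both arrays of 0 h. It rose, with changes of 0.49, 0.37 and 0.52 after 1 h, 3 h and 6 h (SE 0.105, adjusted p = 0.00978, 0.0337 and 0.01). The difference after 0.5 h was 0.26 (adjusted p = 0.139). The calls at 1 h and 6 h were lost without 0 h replicate 2, and also without 1 h replicate 1 or 6 h replicate 1, respectively. At 3 h the call was lost without any 1 of the 4 arrays compared, without either array of 0.5 h and with no filter. FXYD2 was also the only tested gene of the 12 on the array in the sodium pump list. The suffix x applies to its probe set too. ATP1B2 read 2.88 to 2.99 on all arrays.

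Among the proteins that bind calcium pumps, TMX1 and NPTN fell, at different times. TMX1, an oxidoreductase of the endoplasmic reticulum that acts on SERCA, read 7.38 and 7.48 at 0 h, 5.86 and 5.90 at 0.5 h, 5.64 and 4.95 at 1 h, 6.65 and 5.89 at 3 h, and 6.75 and 7.07 at 6 h. It fell, with changes of -1.55, -2.13 and -1.16 after 0.5 h, 1 h and 3 h (SE 0.281, adjusted p = 0.00979, 0.00138 and 0.0184), and stood at -0.52 after 6 h (adjusted p = 0.215). The earliest of these calls was lost with no filter, without 0 h replicate 1 or without 0.5 h replicate 2. That of 3 h was lost with no filter and in fits that left out either 0 h array or 3 h replicate 2. Its other tested probe set stood at -2.08, -1.95, -1.16 and -0.58. The last 2 of these were not called (adjusted p = 0.0524 and 0.303). Both TMX1 probe sets were thus lowest within the first hour, whereas ATP2A2 was lowest at 6 h.

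NPTN, or neuroplastin, an accessory subunit of PMCA, read 7.35 and 6.82 at 0 h, 6.74 and 6.66 at 0.5 h, 6.79 and 6.59 at 1 h, 6.45 and 6.28 at 3 h, and 6.09 and 6.16 at 6 h. It fell, with changes of -0.71 after 3 h and -0.95 after 6 h (SE 0.174, adjusted p = 0.0184 and 0.00693). The call at 3 h was lost with equal array medians, after renewed quantile normalization, with no filter and without 0 h replicate 1 or 3 h replicate 2. BSG, or basigin, the other accessory subunit of PMCA in the lists, differed by 0.05, -0.03, 0.22 and 0.33 and was not called. The secretory pathway pump ATP2C1 stayed below the filter, with its brightest probe set at 3.51 to 3.78.

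In the list of calcium release and store-operated entry, 7 of 19 genes with a probe set were tested, and 1, 2, 3 and 2 of them were called lower at the 4 later times (15.1%, 24.2%, 26.4% and 21.6% of all tested probe sets). RCN2, a calcium-binding protein of the endoplasmic reticulum, fell at all 4, with changes of -1.09, -1.12, -1.02 and -0.83 (SE 0.137, adjusted p = 0.004, 0.00113, 0.00268 and 0.00493). No alternative ended these calls, but the other tested probe set was not called at 6 h (-0.60, adjusted p = 0.0954). SARAF, a brake on store-operated calcium entry, fell after 3 h (-0.78, SE 0.144, adjusted p = 0.00657), and its difference at 6 h was -0.44 (adjusted p = 0.0544). TMCO1, a calcium channel of the endoplasmic reticulum, fell after 3 h and after 6 h (-0.57 both times, SE 0.168, adjusted p = 0.0368 and 0.0393). Its other tested probe set differed by -0.02 and -0.15. Both TMCO1 calls were lost under either other scaling, with no filter, with the replicate block and without any 1 of the 4 arrays compared. CALU, or calumenin, fell after 1 h (-0.63, SE 0.174, adjusted p = 0.0281), a call lost under either other scaling, with no filter and without any 1 of the 4 arrays compared.

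Of the 6 tested genes of mitochondrial calcium transport, 1, 3, 3 and 2 were called lower at the 4 later times, beside the same 15.1%, 24.2%, 26.4% and 21.6% of all. VDAC3, a pore of the outer mitochondrial membrane, read 10.04 and 9.95 at 0 h, 9.34 and 9.13 at 1 h, and 9.91 and 9.92 at 6 h. It fell, with changes of -0.53, -0.76 and -0.61 after 0.5 h, 1 h and 3 h (SE 0.111, adjusted p = 0.0155, 0.00196 and 0.00626), and stood at -0.08 after 6 h (adjusted p = 0.631). Its other tested probe set changed by -1.15, -1.35, -1.10 and -0.50, the last not called. VDAC2 fell, with changes of -0.57, -0.58 and -0.60 from 1 h on (SE 0.146, adjusted p = 0.0207, 0.0212 and 0.0192). VDAC1 fell after 1 h (-0.81, SE 0.235, adjusted p = 0.0346), and its other tested probe set was called lower at all 4 times. MCUR1, a regulator of the mitochondrial calcium uniporter, fell after 3 h and 6 h (-0.53 and -0.79, SE 0.148, adjusted p = 0.0306 and 0.00762). All calls of the brightest probe sets except that of VDAC3 at 1 h were lost without 0 h replicate 1 or without 0 h replicate 2. The calls of the other probe sets of VDAC3 and VDAC1 were not followed in the alternative runs. The VDAC2 calls, that of VDAC3 at 3 h and that of MCUR1 at 3 h were also lost with equal array medians, where the VDAC2 change at 1 h was -0.29. Those of VDAC2, VDAC1 and, at 3 h, MCUR1 were lost with no filter.

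The vacuolar proton pump, which acidifies lysosomes, had 8 of 18 genes tested, and 2, 3, 3 and 4 of them were called lower at the 4 later times, where all tested probe sets gave 15.1%, 24.2%, 26.4% and 21.6%. ATP6V1B2, a subunit of its catalytic head, read 6.84 and 6.87 at 0 h and 6.08 and 5.99 at 6 h, where it fell (-0.82, SE 0.125, adjusted p = 0.00366). ATP6AP2, an accessory protein, fell after 1 h and 3 h (-1.29 and -0.90, SE 0.222, adjusted p = 0.00385 and 0.019). The later call ended with no filter and when 0 h replicate 2 or 3 h replicate 2 was left out. ATP6V1E1 fell at all 4, with changes of -0.57, -0.53, -0.58 and -0.39 (SE 0.112, adjusted p = 0.0123, 0.00927, 0.00792 and 0.0361). ATP6V1G1 fell after 0.5 h, 1 h and 6 h (-0.53, -0.69 and -0.49, SE 0.130, adjusted p = 0.0275, 0.00551 and 0.0261). The calls of ATP6V1E1, and the first and last of ATP6V1G1, were lost without 0 h replicate 1. The calls of ATP6V1E1 after 1 h, 3 h and 6 h and those same 2 of ATP6V1G1 were also lost with equal array medians. With no filter, the 6 h call of ATP6V1E1 and those 2 of ATP6V1G1 were lost too.

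Of 7 tested genes of sodium, potassium and chloride transport, 2, 3, 1 and 1 were called lower, against 15.1%, 24.2%, 26.4% and 21.6% of all. OXSR1, a kinase that controls chloride cotransporters, is among them at all 4 times. It read 5.34 and 5.25 at 0 h and 3.95 to 4.77 on the 8 later arrays. It thus passed the filter only through the arrays of 0 h, where it was high, and a lower level later was built in, so its differences of -1.08, -1.14, -0.80 and -0.69 are given as a description. With values floored at log2 5 they were -0.29 at each time. It was the only gene of this list called at 3 h and 6 h. SLC38A2, a sodium-coupled amino acid transporter, fell after 0.5 h and 1 h (-1.70 and -1.59, SE 0.448, adjusted p = 0.0353 and 0.0309). Both calls were lost with that floor, with no filter and without any 1 array of 0 h, 0.5 h or 1 h, and the earlier one also with the replicate block. The other tested probe set of SLC38A2 was called lower at both times too (-1.67 and -1.75, adjusted p = 0.0259 and 0.0132). WNK1, a kinase upstream of OXSR1, fell after 1 h (-1.14, SE 0.366, adjusted p = 0.0494), a call lost in 10 alternatives, those without any 1 of the 4 arrays compared among them. Another tested probe set of WNK1 was called lower as well (-0.75, adjusted p = 0.00272). Of the 2 tested genes among other P-type ATPases, ATP8B2 and ATP13A1, limma called 0 at each of the 4 times (0 also at an unadjusted p under 0.05), and their differences lay between -0.01 and 0.12.

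**Figure D4:**
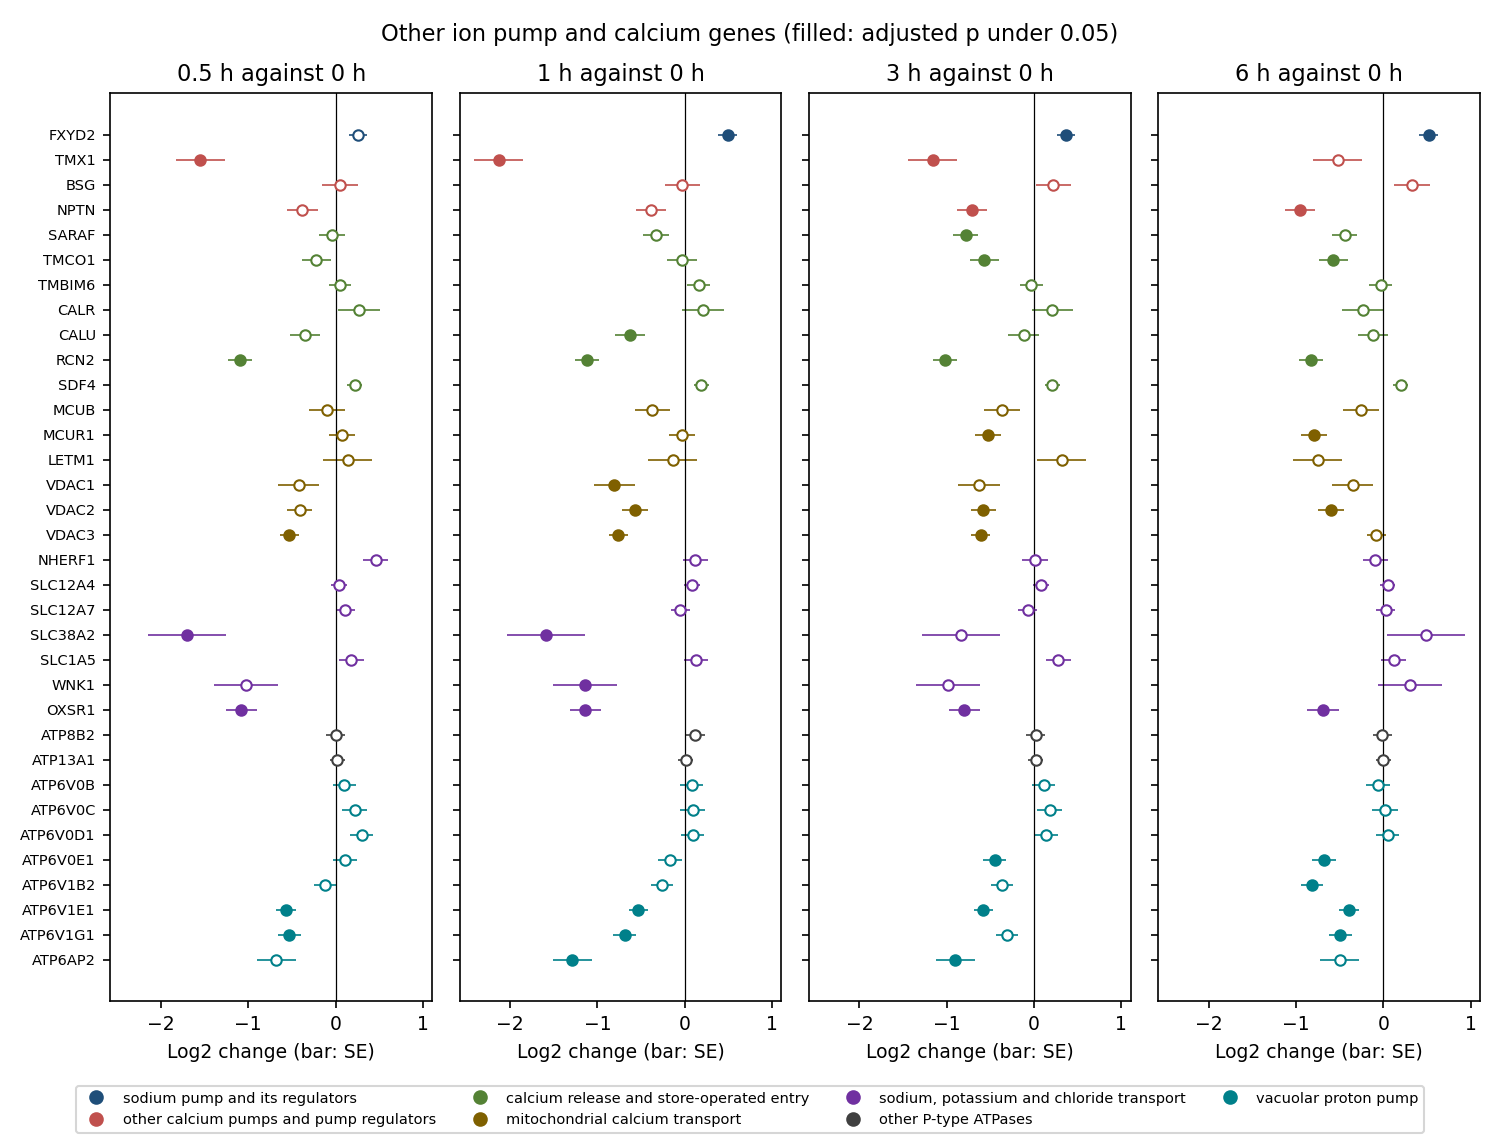
Log2 change from 0 h (horizontal axis, bar: SE of the fit) of the 34 tested genes of the 7 lists, with 1 panel per time and colours for the lists. Filled points have a limma adjusted p under 0.05. Without rescaling of the arrays, FXYD2 is the only filled point above 0, at 1 h, 3 h and 6 h, and TMX1 has its lowest value, -2.13, at 1 h.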

How the data were processed

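The deposited scores were made by the authors with GCRMA, per the submitters' processing notes; its version and the scale of the values are not given in the sources used here. The deposited scores ran from 1.25e-05 to 238.1, and their square roots, up to 15.43, were read as log2, a choice made after the values had been seen. Probe sets were named through the platform annotation, brought to the RefSeq symbols of GRCh38.p14. After removal of 68 control probe sets, those at log2 5 or more on at least 2 of 10 arrays were tested (4276 of 22215). limma 3.58.1 in R 4.3.3 fitted time to all 10 arrays (5 residual degrees of freedom), and was tested on simulated data. Called means a Benjamini-Hochberg adjusted p under 0.05. Of several probe sets of a listed gene the brightest tested one was used. Listed genes were named if called, up to 4 per list by test statistic; ATP1B2 and ATP2C1 were named in any case. Members and lists were chosen with earlier results of these data known. Other scalings, filters, scales, a replicate block, a floor and fits without each array were run.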

Additional observations from a re-analysis of the deposited data

How the results depend on the processing

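With 2 arrays per time, each array weighs heavily. A time left with 1 array is assumed to vary like the others. At every later time, leaving out any of the arrays compared also lowered the number of calls over all tested probe sets. The drops that follow are therefore not particular to the listed genes. Without 1 array at a time, the listed genes called numbered 1 to 8 at 0.5 h, 7 to 13 at 1 h, 3 to 13 at 3 h and 4 to 11 at 6 h. The lowest were reached without 0 h replicate 1 (1, 8, 3 and 4), 0.5 h replicate 2 (1 at 0.5 h) and 1 h replicate 2 (7 at 1 h). Low counts also came without 3 h replicate 2 (4 at 3 h), 6 h replicate 1 (5 at 6 h) and 0 h replicate 2 (8 at 3 h, 7 at 6 h). The subunit probe sets called numbered 1 to 2 at 1 h, with 2 without either 6 h array, and 1 to 2 at 3 h, with 1 without any 1 of the 4 arrays compared. The pair minus ATP2A3 ranged from -0.55 to 0.11 at 1 h, the sign turning without 1 h replicate 1, from -0.71 to -0.02 at 3 h and from -1.68 to -1.36 at 6 h. With the filter at log2 7 the listed genes called were 4 at 0.5 h, 6 at 1 h and 6 at 6 h, of 17 tested. Of all 2236 probe sets tested with that filter, 475, 767 and 792 were called at these times. The subunits called at 1 h were then 2. With no filter 7 listed genes were called at 3 h, of 104 tested. The subunits called at 3 h were 1 with equal array medians and 1 after renewed quantile normalization. They were also 1 with no filter and 1 on log2 of the scores. Over all tested probe sets these runs, in the same order, called 1747 of 4276, 1572 of 4303, 680 of 22215 and 1039 of 4276. On log2 of the scores the pair minus ATP2A3 was -0.60 at 6 h, by construction a smaller unit. With quantile normalization again the listed calls were 6 lower and 3 higher, 10 and 7, 7 and 6, and 7 and 3 at the 4 times. Over all 4303 probe sets tested there, the calls were 624 and 311, 857 and 994, 798 and 774, and 645 and 474. The replicate block gave 0, 1, 2 and 2 subunit calls and 6, 12, 13 and 11 listed calls. Of all 4276 probe sets it called 738, 1197, 1247 and 1137. Whether replicate numbers pair the arrays was not settled. Deviations of equal numbers from the mean of their time correlated at -0.231 to 0.147 over 10 pairs of times. In this check 4 of 10 arrays correlated best with their own number, but both arrays of a time give the same answer by construction. A shift of a whole array does not enter it. The array median was lower in replicate 2 at 0 h, 0.5 h, 1 h and 3 h, and higher at 6 h. No called change of a subunit or of a named gene, at its brightest tested probe set, changed sign in any alternative.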
